A study of Mus musculus with 24 samples.

Results

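The data described here are the transcripts of 9 enzymes of the tricarboxylic acid (TCA) cycle, Cs, Idh1, Idh2, Idh3a, Ogdh, Dlst, Fh1, Mdh1 and Mdh2, in mouse CD4+ T cells. They were chosen by name, with earlier results of these data known, as enzymes that carry out or flank the steps of the cycle. They make up 9 of the 54446 genes in the count table. All 9 passed the filter on low counts and stand among the 15325 genes tested. The study took splenic CD4+ T cells of C57BL6 mice that were wild-type (WT) or deficient in the DNA sensor Aim2 (Aim2-/-). Their polyadenylated RNA was sequenced at rest (0 h) and after 3, 6 and 24 h with antibodies against CD3 and CD28. These antibodies stand in for the antigen and costimulatory signals. There were 24 libraries in 8 groups, with 3 mice per genotype (numbered 1, 3 and 4 for WT and 1, 2 and 4 for Aim2-/-) and each mouse present at all 4 times. The cells had been enriched by removal of other cells from the spleen. The mice as a whole, not only their T cells, were deficient in Aim2. The comparisons ask how the transcripts of the cycle changed with stimulation and whether the genotypes differed. Mouse ages were not given in the sources used here.

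The TCA cycle is a ring of reactions in the mitochondrial matrix that oxidizes the acetyl group of acetyl-CoA and hands electrons to the respiratory chain. Citrate synthase (Cs) opens it, isocitrate and oxoglutarate are then oxidized, and fumarase and malate dehydrogenase close it, while its intermediates also leave for lipid, nucleotide and amino acid synthesis. Naive T cells at rest rely largely on oxidative metabolism, and cells that leave quiescence after antigen contact expand mitochondrial mass and glycolysis before they divide. Idh1 and Mdh1 encode the cytosolic counterparts of mitochondrial steps, and Mdh1 serves the malate-aspartate shuttle, which carries reducing equivalents into mitochondria.

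Library totals ran from 19715161 to 21627018 counts. Aim2 itself checks the genotype labels. Levels are given as CPM, counts relative to 1000000 library counts of the tested genes after scaling by trimmed mean of M-values (TMM) factors. At 0 h Aim2 stood at 21.5, 75.00 and 67.5 CPM in WT 1, 3 and 4. In Aim2-/- 1, 2 and 4 it stood at 15.7, 20.1 and 19.00 CPM. The libraries labelled WT 1 were within or close to the Aim2-/- range at all 4 times (5.57 CPM at 24 h against 34.0 and 38.7 CPM in WT 3 and 4), so the main genotype differences are also given without this mouse. The CD4 T cell marker sum (Cd3d, Cd3e, Cd3g, Cd4, Cd5 and Lck) was between 2664 and 3913 CPM in every library. Of other cells, the summed level of 12 myeloid markers was 17.4 to 83.8 CPM over the WT libraries and 63.8 to 644 CPM over the Aim2-/- libraries, that of 6 B cell markers 2.93 to 7.98 against 5.09 to 44.3 CPM, and that of 6 erythroid markers 7.52 to 71.8 against 12.8 to 498 CPM.

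At rest the transcripts of the cycle spanned a wide range of levels. Per kilobase of the longest coding transcript, Mdh2, the mitochondrial malate dehydrogenase, was highest at 138 ± 7.60 CPM per kb (mean ± SD, n = 3 WT mice), followed by Mdh1 at 121 ± 7.02 and by Dlst, the succinyltransferase of the oxoglutarate dehydrogenase complex, at 81.9 ± 0.0601. Cs stood at 75.2 ± 0.725 and Ogdh, the oxoglutarate-decarboxylating subunit of that complex, at 55.4 ± 2.58 CPM per kb. The lower group comprised Idh2, the mitochondrial NADP-dependent isocitrate dehydrogenase, at 22.5 ± 1.61, Idh3a, the catalytic subunit of the NAD-dependent enzyme of the cycle, at 20.97 ± 1.07, and the fumarase Fh1 at 17.1 ± 1.95. Idh1 came last at 4.41 ± 0.347 CPM per kb. Among neighbours in this order only the ranges of Idh2 and Idh3a overlapped in resting WT cells. In resting Aim2-/- cells the ranges of Mdh2 and Mdh1 overlapped too, as did those of Idh2 with Idh3a and with Fh1. By 24 h the order in WT cells was Mdh2 (454 ± 26.8 CPM per kb), Cs, Mdh1, Dlst, Ogdh, Idh3a, Fh1, Idh2 and Idh1 (2.27 ± 0.351), where the ranges of Dlst and Ogdh and of Idh3a and Fh1 overlapped. Cs had thus moved from place 4 to place 2, and the spread between the highest and the lowest member had widened.

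The 9 genes lie on 7 chromosomes of the mouse assembly GRCm38. Fh1 (ENSMUSG00000026526, chr1:175600374-175625635, minus strand) is 2.13 Mb from Aim2, whereas Idh1 (ENSMUSG00000025950, chr1:65158616-65186500, minus strand) is 108.2 Mb away on the same chromosome. Idh3a (ENSMUSG00000032279) is at chr9:54586334-54604661 and Mdh2 (ENSMUSG00000019179) at chr5:135778480-135790398, both on the plus strand. Fh1 overlaps Kmo and Mdh1 (ENSMUSG00000020321, chr11:21556787-21572367, minus strand) overlaps Wdpcp, each on the opposite strand. Kmo stood at no more than 4.00 CPM and Wdpcp at no more than 3.07 CPM in any library, against at least 41.6 CPM for Fh1 and 175.5 CPM for Mdh1.

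Promoter windows of 300 bases, from 250 bases before to 50 after a start, were available from RefSeq (GRCm38.p6) for 8 of the 9 genes, all but Idh3a. The windows of Fh1 and Mdh2, with Idh3a the members that rose most after stimulation, and those of Idh1 and Mdh1, which fell for part or all of the time course, are shown 5′ to 3′ on the strand of the gene. Capitals mark matches on either strand to 6 motifs that were searched, CACGTG (E-box), TGACGTCA (CRE), GCGCA followed directly by TGCGC (NRF1), CCGGAAG (ETS), CCAAT (NF-Y) and GGGCGG (SP1), whose matches do not overlap in these 4 windows.
Fh1, chr1:175625586-175625885, minus strand: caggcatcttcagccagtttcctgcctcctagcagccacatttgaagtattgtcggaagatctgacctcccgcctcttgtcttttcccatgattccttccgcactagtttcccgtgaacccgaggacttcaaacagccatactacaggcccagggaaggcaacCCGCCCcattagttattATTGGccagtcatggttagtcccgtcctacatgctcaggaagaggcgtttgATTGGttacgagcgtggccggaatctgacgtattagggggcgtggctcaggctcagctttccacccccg
Mdh2, chr5:135778399-135778698, plus strand: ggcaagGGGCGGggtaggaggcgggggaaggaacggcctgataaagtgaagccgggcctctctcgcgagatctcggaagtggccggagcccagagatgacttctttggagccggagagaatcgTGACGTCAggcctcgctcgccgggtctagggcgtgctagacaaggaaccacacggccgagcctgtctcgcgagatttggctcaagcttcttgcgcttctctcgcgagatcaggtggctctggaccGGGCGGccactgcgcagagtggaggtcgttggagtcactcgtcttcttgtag
Idh1, chr1:65186430-65186729, minus strand, the upstream of its 2 windows: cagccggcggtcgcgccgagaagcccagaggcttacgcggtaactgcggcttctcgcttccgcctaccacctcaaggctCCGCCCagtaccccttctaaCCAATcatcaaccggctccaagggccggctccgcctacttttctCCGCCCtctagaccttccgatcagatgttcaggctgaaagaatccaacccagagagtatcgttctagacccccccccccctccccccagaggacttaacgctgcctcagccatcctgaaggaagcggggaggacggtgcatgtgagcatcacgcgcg
Mdh1, chr11:21571885-21572184, minus strand: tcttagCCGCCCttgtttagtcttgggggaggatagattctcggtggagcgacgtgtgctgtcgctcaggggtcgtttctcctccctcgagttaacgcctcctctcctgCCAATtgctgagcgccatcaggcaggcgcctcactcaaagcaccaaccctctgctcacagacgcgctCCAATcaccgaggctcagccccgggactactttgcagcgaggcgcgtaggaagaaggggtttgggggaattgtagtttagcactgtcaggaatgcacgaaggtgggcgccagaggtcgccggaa
All 8 members held the SP1 motif in a window, as did 38.2% of the 27025 genes with windows. NF-Y was matched in 6 members (Cs, Idh1, Idh2, Ogdh, Fh1 and Mdh1; 41.1% of genes), with 2 matches in each of the windows of Fh1 and Mdh1. CRE was matched in Ogdh and Mdh2 (2.03% of genes), ETS in Dlst (9.93%) and the E-box in Ogdh (8.09%), while no member window held the NRF1 letters (1.07%). These matches describe the letters of the windows only.

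Most transcripts of the cycle rose with stimulation, and more members rose by 24 h than by 3 or 6 h. In WT cells 8 of the 9 members were higher at 24 h than at 0 h by the edgeR test (adjusted p under 0.05, here termed called) and 1, Idh1, was lower, where 36.6% of all tested genes were called higher and 34.8% lower. In Aim2-/- cells 7 members were called higher at 24 h (36.8% of all genes) and 0 lower (33.5%), with Idh1 (unadjusted p = 0.324) and Mdh1 (unadjusted p = 0.462) not called. The median log2 change of the 9 members at 24 h was 1.32 in WT and 1.24 in Aim2-/- cells, and that of all tested genes was -0.013 and 0.030. Their summed counts went from 0.122% of all counts at 0 h to 0.274% at 24 h in WT cells and from 0.132% to 0.258% in Aim2-/- cells. These are values per total RNA counted, in which more transcript per cell and more cells that carry it cannot be told apart. All 3 comparisons with 0 h in a genotype share the same 0 h libraries.

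**Figure D1:**
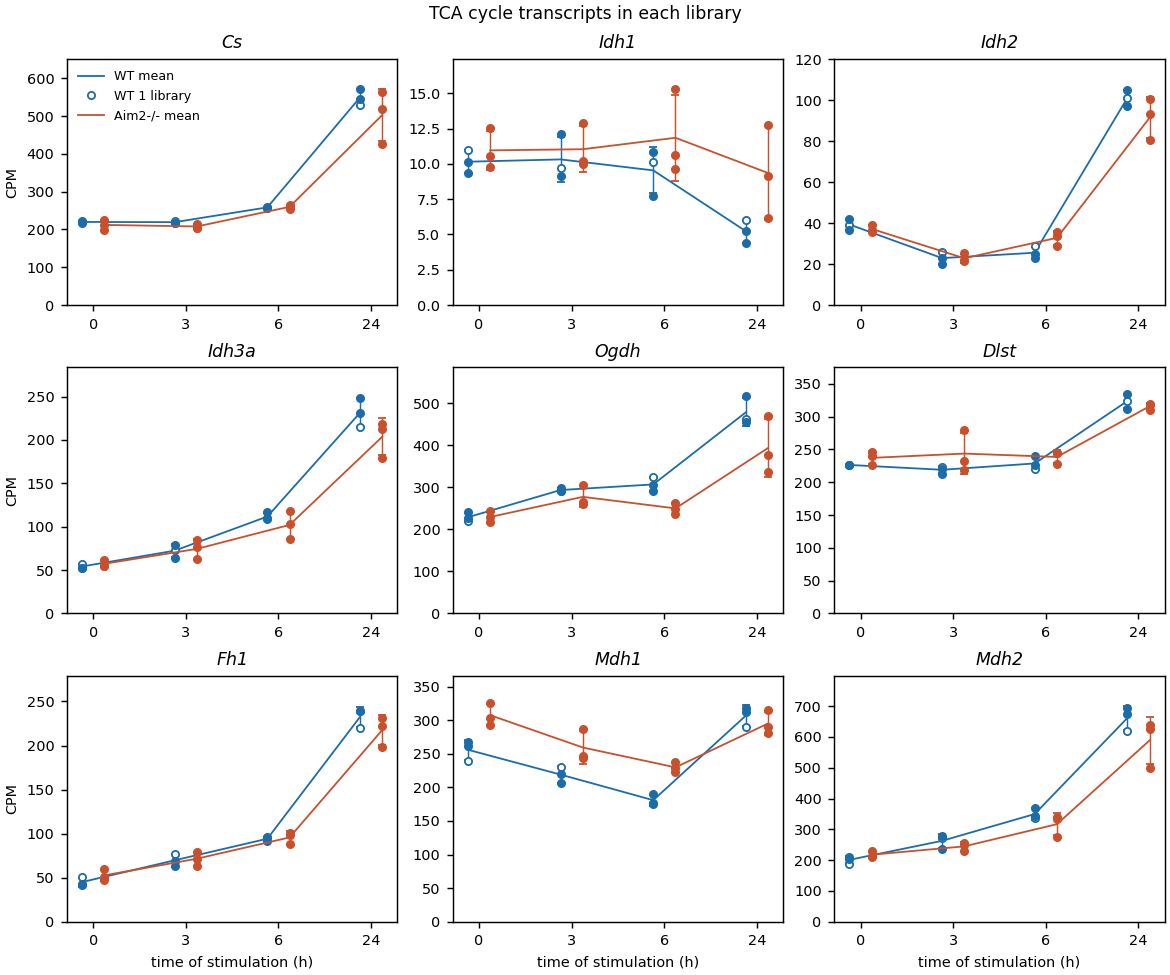
Level of each member in CPM (y axis, from 0) in every library against time of stimulation (x axis, 4 times evenly spaced); points are mice, lines the group means and bars the SD over 3 mice, with the libraries labelled WT 1 as open points. Fh1, Idh3a and Mdh2 climb at each step, Idh2 and Mdh1 dip before 24 h, and Idh1 is lowest in WT cells after 24 h.

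Earlier in the response the members diverged. At 3 h 4 of 9 were called higher in WT cells (16.2% of all genes) and 2 lower (16.4%), and in Aim2-/- cells 3 higher (16.1%) and 2 lower (14.6%). At 6 h 5 were higher (26.4%) and 2 lower (24.8%) in WT cells, and 4 higher (28.5%) and 1 lower (22.7%) in Aim2-/- cells. The median log2 change of the members was 0.023 and 0.23 at 3 and 6 h in WT and 0.039 and 0.12 in Aim2-/- cells. Fh1 and Idh3a were higher at both times in both genotypes, Mdh1 was lower at both times in both genotypes, and Idh2 was lower at 3 h in both. The count at 3 h in WT cells was 2 without mouse WT 3 and 3 without WT 4, and that in Aim2-/- cells was 2 without either Aim2-/- 2 or Aim2-/- 4.

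Cs, the entry enzyme, was called higher from 6 h on. In WT cells it was 218 to 222 CPM at 0 h, 217 to 223 after 3 h, 257 to 260.3 after 6 h and 529 to 573 after 24 h. The Aim2-/- ranges of Cs were 199 to 225, 204 to 215, 254 to 264 and 427 to 563 CPM. The libraries at 6 h stood above all those at 0 h in each genotype and those at 24 h above all those at 6 h. In WT cells its log2 change from 0 h was -0.0042 ± 0.079 (SE) at 3 h, which did not pass (95% interval -0.17 to 0.16), then 0.23 ± 0.079 after 6 h (adjusted p = 0.0175) and 1.32 ± 0.080 after 24 h (2.50-fold, adjusted p = 5.51e-12). In the Aim2-/- mice it was 0.29 ± 0.079 after 6 h (adjusted p = 0.00386) and 1.24 ± 0.080 after 24 h (adjusted p = 1.83e-11). The small change at 6 h in WT cells lost its call when any 1 of the 3 WT mice was left out, and in 3 of 8 other alternatives.

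The 3 isocitrate dehydrogenases, which share a substrate but differ in cofactor, compartment or both, took different courses. Idh3a rose at each time. In WT 1, 3 and 4 it was 57.3, 52.8 and 52.2 CPM at 0 h, 73.6, 79.1 and 64.2 after 3 h, 108, 117 and 109.7 after 6 h and 215, 248 and 231 after 24 h. In Aim2-/- 1, 2 and 4 it was 55.1, 54.7 and 61.9 CPM at 0 h, 62.2, 76.1 and 84.9 after 3 h, 85.8, 103 and 118 after 6 h and 179.6, 219 and 212 after 24 h. All 3 mice of a genotype stood above their 0 h range at each later time. Its log2 change at 24 h was 2.10 ± 0.12 in WT (4.27-fold, adjusted p = 3.04e-12) and 1.83 ± 0.12 in Aim2-/- cells (3.56-fold, adjusted p = 2.74e-11). At 3 h it was 0.42 ± 0.12 in WT cells (adjusted p = 0.00921), a call lost without WT 3 or WT 4.

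Idh2 fell at 3 h and stood above its 0 h level only at 24 h. Its WT values were 39.3, 42.2 and 36.6 CPM at 0 h, 25.7, 20.02 and 23.1 after 3 h, 28.9, 22.98 and 24.8 after 6 h and 101, 105 and 97.2 after 24 h. Its Aim2-/- values were 35.8, 36.7 and 39.1 CPM at 0 h, 25.2, 21.3 and 22.03 after 3 h, 33.7, 28.98 and 35.8 after 6 h and 80.8, 100.4 and 93.1 after 24 h. The 3 h ranges lay wholly below those at 0 h and the 24 h ranges wholly above them in both genotypes. At 3 h the level was 0.583 times that at 0 h in WT (log2 -0.78 ± 0.11, adjusted p = 1.48e-05) and 0.615 times in Aim2-/- cells (log2 -0.70 ± 0.11, adjusted p = 6.47e-05), calls kept in every alternative that was run. At 6 h it was still lower in WT cells (log2 -0.62 ± 0.11, adjusted p = 7.23e-05), whereas the Aim2-/- value of -0.18 ± 0.11 did not pass (adjusted p = 0.179). From 6 to 24 h Idh2 had the largest log2 change of the 9 members in both genotypes, 1.98 ± 0.11 in WT and 1.48 ± 0.11 in Aim2-/- cells.

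Idh1, the cytosolic and peroxisomal NADP-dependent enzyme, was the member of lowest level and the one called lower after 24 h. In WT 1, 3 and 4 it was 10.95, 9.36 and 10.1 CPM at 0 h, 9.68, 9.16 and 12.1 after 3 h, 10.1, 7.69 and 10.8 after 6 h and 6.03, 5.24 and 4.41 after 24 h, from 86 to 259 counts per library. In Aim2-/- 1, 2 and 4 it was 10.6, 9.80 and 12.5 CPM at 0 h, 12.9, 10.2 and 9.98 after 3 h, 15.3, 9.61 and 10.6 after 6 h and 12.8, 6.15 and 9.13 after 24 h. All 3 WT libraries at 24 h were below every earlier WT library, while the Aim2-/- values at 24 h spread more widely than those at 0 h and overlapped them. The WT change at 24 h was -0.96 ± 0.23 (0.515 times the 0 h level, adjusted p = 9.40e-04), and it was called in all 11 alternatives, with values from -1.07 to -0.89. In Aim2-/- cells it was -0.23 ± 0.23 (adjusted p = 0.375), and -0.55 without mouse Aim2-/- 1 (adjusted p = 0.0382).

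**Figure D2:**
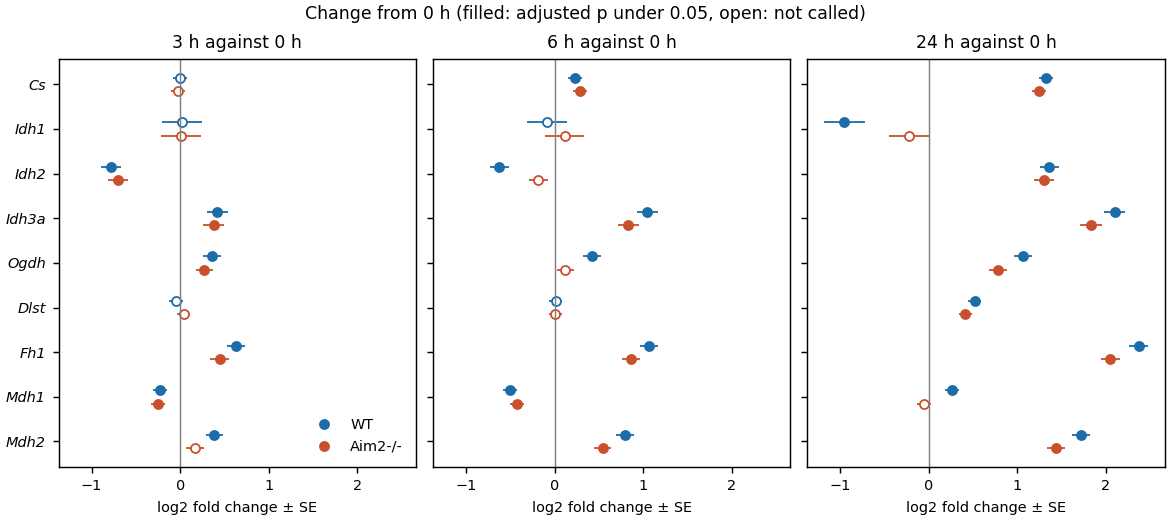
Log2 fold change of each member from 0 h (x axis, with SE) at 3, 6 and 24 h in WT (blue) and Aim2-/- cells (orange); filled points were called at adjusted p under 0.05 and open points were not. At 24 h all members but Idh1, and in Aim2-/- cells Mdh1, are filled to the right of 0, with Fh1 farthest at 2.37 in WT cells.

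The 2 subunits of the oxoglutarate dehydrogenase complex differed in timing. Ogdh in WT cells was 219, 227 and 240.1 CPM at 0 h, 290.4, 291 and 299 after 3 h, 326, 305 and 289.9 after 6 h and 463, 517 and 456 after 24 h. In Aim2-/- cells it was 216, 244 and 228 CPM at 0 h, 261, 306 and 264 after 3 h, 249, 263 and 236 after 6 h and 336, 469 and 376 after 24 h. It was higher from 3 h in WT cells, with ranges apart from 0 h at every later time, and in Aim2-/- cells its range at 6 h overlapped that at 0 h. The log2 changes in WT cells were 0.36 ± 0.10 after 3 h, 0.42 ± 0.10 after 6 h and 1.06 ± 0.10 after 24 h (adjusted p = 5.14e-09). The Aim2-/- changes were 0.27 ± 0.10 after 3 h (adjusted p = 0.0426), 0.12 ± 0.10 after 6 h, which did not pass (adjusted p = 0.320), and 0.78 ± 0.10 after 24 h (adjusted p = 5.76e-07). The Aim2-/- call at 3 h was lost in 7 of 11 alternatives and the WT call at 3 h when any 1 of the WT mice was left out.

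Dlst had the narrowest range of group means of the 9 on the log2 scale. It stood between 213 and 240 CPM in WT libraries up to 6 h and between 219 and 279 CPM in Aim2-/- libraries, and its changes at 3 and 6 h did not pass in either genotype, with 95% intervals at 6 h of -0.14 to 0.17 and -0.15 to 0.16 on the log2 scale. At 24 h it was 312 to 335 CPM in WT and 309.6 to 320.0 CPM in Aim2-/- cells, above every earlier library. The log2 change was 0.52 ± 0.075 (adjusted p = 2.93e-06) and 0.41 ± 0.075 (adjusted p = 5.16e-05), less than that of Ogdh in both genotypes, and that order was not tested.

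Fh1, which hydrates fumarate to malate, had the largest rise of the 9. In WT 1, 3 and 4 it was 50.9, 42.5 and 41.6 CPM at 0 h, 77.2, 68.9 and 63.03 after 3 h, 94.9, 96.2 and 91.4 after 6 h and 219, 239 and 239 after 24 h. In Aim2-/- 1, 2 and 4 it was 47.7, 50.5 and 59.6 CPM at 0 h, 63.6, 71.5 and 79.5 after 3 h, 87.8, 98.1 and 101 after 6 h and 199, 232 and 222 after 24 h. From 3 h on, every library was above every library of the preceding time in the same genotype. The change at 24 h was 5.16-fold in WT (log2 2.37 ± 0.11, adjusted p = 1.13e-13) and 4.14-fold in Aim2-/- cells (log2 2.05 ± 0.11, adjusted p = 1.10e-12). The rise after 3 h, 0.63 ± 0.10 in WT and 0.44 ± 0.10 in Aim2-/- cells, was called in every alternative.

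The mitochondrial Mdh2 followed the same upward course, from 188 to 209.5 CPM at 0 h to 237 to 279 after 3 h, 336 to 369.9 after 6 h and 618 to 693 after 24 h in WT cells. In Aim2-/- cells its ranges were 211 to 228, 228 to 255, 275 to 341 and 501 to 639 CPM. The 24 h change was 3.29-fold in WT (log2 1.72 ± 0.10, adjusted p = 4.35e-12) and 2.71-fold in Aim2-/- cells (log2 1.44 ± 0.10, adjusted p = 7.78e-11). At 3 h it was 0.39 ± 0.10 in WT (adjusted p = 0.00482) and 0.17 ± 0.10 in Aim2-/- cells, which did not pass (adjusted p = 0.222). The WT call was lost without WT 1 (0.32, adjusted p = 0.0903) or without WT 3 (0.34, adjusted p = 0.111).

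The cytosolic Mdh1 went down before it came back. In WT cells it was 239, 267 and 262 CPM at 0 h, 231, 206 and 220.3 after 3 h, 175, 177 and 190.1 after 6 h and 289.8, 318 and 312 after 24 h. The Aim2-/- values were 304, 293 and 325 CPM at 0 h, 288, 246 and 244 after 3 h, 238, 223 and 229 after 6 h and 289.7, 281 and 315 after 24 h. The 6 h libraries of each genotype were below all of its 0 h libraries. At 6 h the level was 0.707 times that at 0 h in WT (log2 -0.50 ± 0.078, adjusted p = 1.61e-05) and 0.747 times in Aim2-/- cells (log2 -0.42 ± 0.078, adjusted p = 1.30e-04). At 24 h it was above its 0 h level in WT cells by 0.26 ± 0.078 (adjusted p = 0.00522), a call lost without WT 3, without WT 4 or with no filter on low counts, and within -0.22 to 0.10 of it in Aim2-/- cells (95% interval of the log2 change). The calls after 3 h, -0.22 ± 0.078 and -0.25 ± 0.078, were lost in 5 of 11 alternatives in each genotype, among them library totals in place of TMM factors.

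Between consecutive times, 4 members were called higher (14.2% of all genes) and 1, Mdh1, lower (11.5%) from 3 to 6 h in WT cells. Over the same step 5 were higher (13.4%) in Aim2-/- cells and 0 lower (9.89%), with Mdh1 at an unadjusted p of 0.0367. From 6 to 24 h 8 were higher (29.6%) and Idh1 lower (28%) in WT cells, and 8 were higher (27.4%) and 0 lower (27%) in Aim2-/- cells, where Idh1 had an unadjusted p of 0.144. The 3 to 6 h step was the less firm. Its counts of called members were 3, 2 and 1 without WT 1, 3 and 4, and 2 without either Aim2-/- 2 or Aim2-/- 4, and 0 in Aim2-/- cells when only the libraries of these 2 groups were fitted. Idh2 in Aim2-/- cells was called higher from 3 to 6 h, at 0.52 ± 0.11 (adjusted p = 0.00218). That call was lost without Aim2-/- 4 or with only the libraries compared. In WT cells the change of Idh2 over this step, 0.16 ± 0.11, did not pass, and the difference between the genotypes in this step was not tested.

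The cytosolic enzyme's share was lower at 24 h than at 0 h, both in Mdh1 plus Mdh2 and in Idh1, Idh2 plus Idh3a. The latter sum leaves out Idh3b and Idh3g. In WT cells these had means of 105 and 124 CPM at 0 h and 210 and 170 CPM at 24 h. Of the malate dehydrogenase transcripts, on the scale of CPM per kb, Mdh1 made up 46.5, 47.2 and 46.2% in WT 1, 3 and 4 at 0 h, 36.8, 33.6 and 38.96% after 3 h, 26.4, 24.7 and 27.5% after 6 h and 24.4, 23.98 and 24.1% after 24 h. In Aim2-/- 1, 2 and 4 it made up 49.3, 48.9 and 49.5% at 0 h, 46.3, 39.8 and 40.1% after 3 h, 37.2, 30.97 and 31.9% after 6 h and 28.4, 23.5 and 25.3% after 24 h. The share was lower in every mouse at 24 h than at 0 h, and the Aim2-/- mice stood above the WT mice at 0, 3 and 6 h without overlap. The difference in the Mdh1 share, Aim2-/- minus WT, was 2.58 percentage points at 0 h, 5.63 at 3 h, 7.17 at 6 h and 1.59 after 24 h. The exact two-sided permutation test gave p = 0.1 at 0, 3 and 6 h, which is the smallest that 3 against 3 mice allow, and 0.4 at 24 h (0.2 and 0.533 after Benjamini-Hochberg adjustment over 8 tests). Without WT 1 the differences were 2.52, 5.81, 7.26 and 1.69 points. Without Aim2-/- 1 that at 3 h was 3.50 points and that at 24 h 0.246 points, and without Aim2-/- 2 the latter was 2.69 points.

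Idh1 made up 9.21% ± 0.748 (SD, n = 3) of the summed Idh1, Idh2 and Idh3a transcripts in WT cells at 0 h, 9.87% ± 1.95 at 3 h, 6.67% ± 1.15 at 6 h and 1.52% ± 0.267 after 24 h. In Aim2-/- cells the share was 9.84% ± 0.66, 10.3% ± 2.09, 8.22% ± 2.60 and 3.08% ± 1.38. At 24 h it was 1.82, 1.44 and 1.30% in the WT mice and 4.57, 1.84 and 2.84% in the Aim2-/- mice, with no overlap and p = 0.1 by the exact permutation test (0.2 adjusted). The difference was 1.56 points, or 1.71 without WT 1 and 0.821 without Aim2-/- 1. At 0, 3 and 6 h the genotypes overlapped (exact p = 0.4, 0.6 and 0.6).

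**Figure D3:**
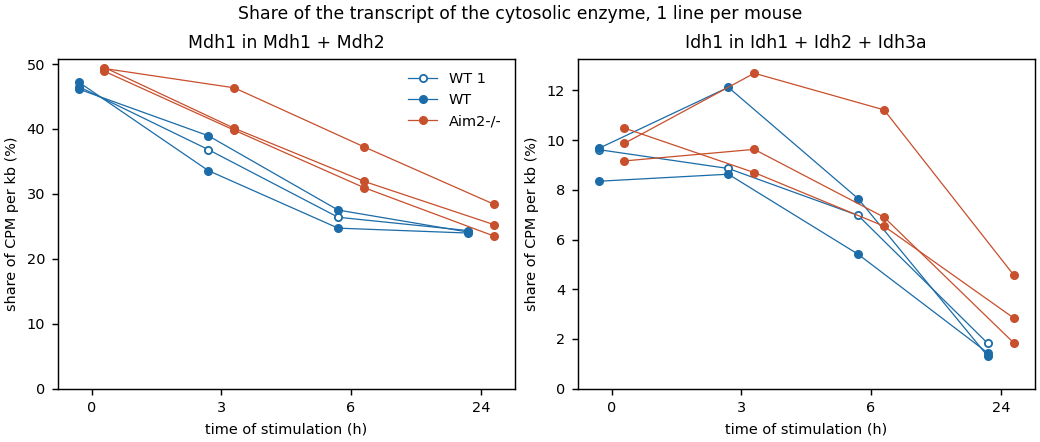
Share of Mdh1 in Mdh1 and Mdh2 (left) and of Idh1 in Idh1, Idh2 and Idh3a (right), in percent of CPM per kb (y axes, from 0), against time (x axes, 4 times evenly spaced), with 1 line per mouse and open points for WT 1. Mdh1 goes from near 47% to 24% of the pair in WT cells, and Idh1 from about 9% to 1.5% of its trio.

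Over the 8 group means, each gene centred on its own mean, the profiles of Idh3a and Fh1 were the most alike of all pairs of members, with a root mean square difference of 0.115 on the log2 scale, followed by Idh3a with Mdh2 (0.151) and Cs with Mdh2 (0.161). Those of Idh1 and Fh1 were the least alike (1.09). These distances describe 8 means that share libraries and carry no test. The nearest profiles were sought among tested genes with a symbol that is not a clone name. Nearest to Cs were Mrpl49 (0.043), Atp5c1 (0.043) and Ndufa9 (0.064). In that order they encode a protein of the mitochondrial ribosome, a subunit of ATP synthase and a subunit of respiratory complex I. Nearest to Mdh2 were Hars (0.034), a cytosolic histidyl-tRNA synthetase, Psmd3 (0.042), a proteasome subunit, and Hspa14 (0.047), and nearest to Idh3a were Gars (0.060), Psmd7 (0.063) and Ppp5c (0.070). Blvra (0.059), Mrpl16 (0.061) and Rpp30 (0.072) were nearest to Fh1, and Cdk5rap2 (0.048), Cstf1 (0.063) and Ext2 (0.066) to Ogdh. Dlst had Ppt1 (0.053), Vps29 (0.054) and Msi2 (0.056) as nearest, and Mdh1 had B9d2 (0.060), Gtf2b (0.079) and Rtn3 (0.083). Idh2 and Idh1 had no neighbours so close apart from Cd52 for Idh2 (0.077). The next to Idh2 were Dyx1c1 (0.151) and Ptprv (0.157), and Dnase1l1 (0.111), Susd3 (0.127) and Rinl (0.131) were nearest to Idh1.

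Other genes of the cycle moved with the majority of the members after 24 h. All 10 analysed here (Idh3b, Idh3g, Dld, Suclg1, Suclg2, Sucla2 and the 4 Sdh subunits) were called higher in both genotypes, against 36.6% of all tested genes in WT and 36.8% in Aim2-/- cells. Their median log2 changes were 1.11 in WT and 1.12 in Aim2-/- cells. The largest were the succinyl-CoA ligase subunits Suclg2, at 2.03 ± 0.16 in WT and 1.70 ± 0.16 in Aim2-/- cells, and Suclg1, at 1.80 ± 0.14 and 1.75 ± 0.14, followed by the succinate dehydrogenase subunits Sdhd (1.60 ± 0.11 in WT) and Sdhb (1.35 ± 0.083). At 3 h 1 of the 10 was called higher and 1 lower in each genotype (16.2% and 16.4% of all genes in WT, 16.1% and 14.6% in Aim2-/- cells). At 6 h 6 were higher (26.4%) and 1 lower (24.8%) in WT and 5 higher (28.5%) and 0 lower (22.7%) in Aim2-/- cells.

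**Figure D4:**
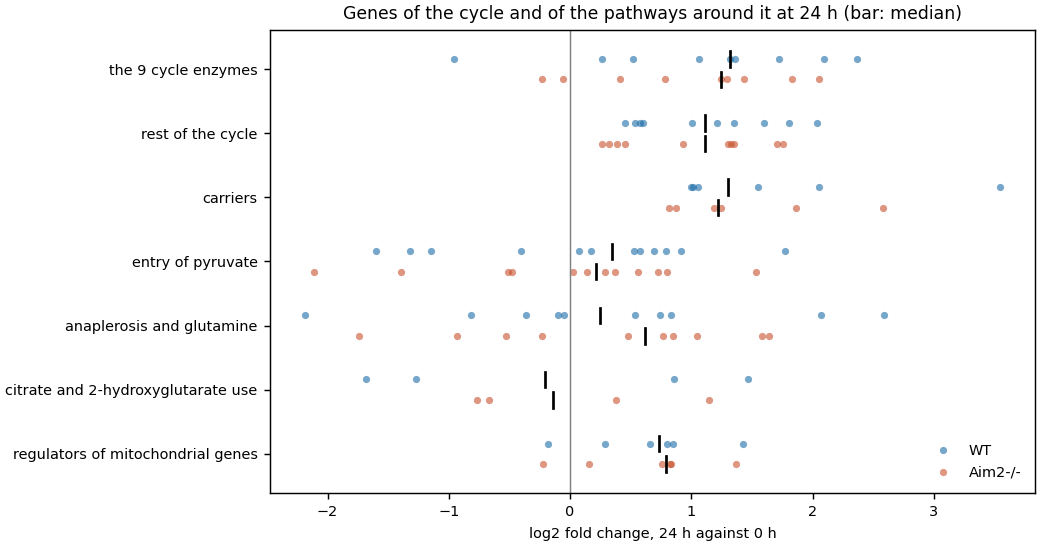
Log2 fold change at 24 h against 0 h (x axis) of the 9 enzymes and of 6 lists of genes around the cycle (rows) in WT (blue) and Aim2-/- cells (orange); each point is a gene and each bar the median of its list. Every plotted gene of the rest of the cycle and of the carriers lies to the right of 0, and the lists for pyruvate entry and for anaplerosis hold genes on both sides.

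Genes that feed or drain the cycle were more mixed. Over all tested genes, 36.6% were called higher and 34.8% lower at 24 h in WT cells, and 36.8% and 33.5% in Aim2-/- cells. Of 12 tested genes for the entry of pyruvate, 6 were higher and 3 lower at 24 h in WT cells, and 6 higher and 4 lower in Aim2-/- cells (median log2 changes 0.35 and 0.21). Dlat, the acetyltransferase of the pyruvate dehydrogenase complex, was higher (1.77 ± 0.086 in WT and 1.53 ± 0.085 in Aim2-/- cells), whereas the kinase Pdk2 (-1.32 ± 0.19 and -0.48 ± 0.19), the phosphatase Pdp1 (-1.15 ± 0.12 and -1.39 ± 0.12) and its regulatory subunit Pdpr (-1.60 ± 0.46 and -2.11 ± 0.47) were lower. Of 10 tested genes for anaplerosis and glutamine use, 5 were higher and 3 lower in WT and 5 higher and 4 lower in Aim2-/- cells (medians 0.24 and 0.62). Named by the size of their change were the aminotransferases Gpt2 (2.59 ± 0.33 in WT) and Got2 (2.07 ± 0.16) and pyruvate carboxylase Pcx (0.83 ± 0.25), all higher. The rule also named malic enzyme Me1, 1 of the 3 called lower in WT cells, but its level was near the counting floor, between 0.200 and 0.355 CPM in WT libraries at 0 h and 0.0507 and 0.0514 CPM at 24 h and at most 0.818 CPM in an Aim2-/- library, so no fold is given. All 6 mitochondrial carriers of cycle intermediates were higher in both genotypes (medians 1.30 and 1.22). Among them were Slc25a13, an aspartate-glutamate carrier of the malate-aspartate shuttle, at 3.54 ± 0.28 in WT and 2.58 ± 0.27 in Aim2-/- cells, the dicarboxylate carrier Slc25a10 at 2.05 ± 0.14 and 1.87 ± 0.13, the citrate carrier Slc25a1 at 1.55 ± 0.10 and 1.25 ± 0.10, and the glutamate carrier Slc25a22 at 1.05 ± 0.14 and 1.19 ± 0.14.

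Of 4 genes that use citrate or 2-hydroxyglutarate, 2 were higher and 2 lower at 24 h in WT cells, and 2 higher and 1 lower in Aim2-/- cells (medians -0.20 and -0.14). Of all tested genes, 36.6% were higher and 34.8% lower in WT cells, and 36.8% and 33.5% in Aim2-/- cells. The cytosolic aconitase Aco1 was higher (1.47 ± 0.13 in WT), as was Acly, which splits citrate to acetyl-CoA in the cytosol (0.86 ± 0.13), and D2hgdh, which oxidizes D-2-hydroxyglutarate, was lower (-1.27 ± 0.19). Acod1, which makes itaconate in myeloid cells, was lower in WT cells (-1.69 ± 0.63) and higher in Aim2-/- than in WT cells at 6 h (2.13 ± 0.61), or 3.01 without WT 1 and 0.60 with scores of myeloid, B cell and erythroid markers as terms of the fit, where it was not called. Those scores themselves differ between the genotypes. Of 6 tested regulators of mitochondrial genes, 5 were higher and 0 lower in WT cells and 4 higher and 1 lower in Aim2-/- cells (medians 0.73 and 0.79). The coactivators Pprc1 (1.43 ± 0.17 in WT) and Ppargc1b (0.85 ± 0.18), the mitochondrial transcription factor Tfam (0.80 ± 0.10) and the nuclear receptor Esrra (0.66 ± 0.14) were among the higher ones. Of the paralogs of members, Ogdhl was called higher at 24 h in both genotypes. It was near the counting floor, at 0.155 to 0.300 CPM in WT libraries at 0 h and 1.18 to 1.52 CPM at 24 h. In Aim2-/- libraries it was at 0.0985 to 0.484 CPM and 1.23 to 2.02 CPM, so no fold is given. Dhtkd1 was not called, and Csl and Mdh1b did not pass the filter on low counts.

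Few members were called between the genotypes. By the edgeR test 0 of 9 were called at 0 h, where 5.23% of all tested genes were, 0 at 3 h (0.294%), 3 at 6 h (15.8%) and 0 at 24 h (0.666%). The members with an unadjusted p under 0.05 were 2, 1, 3 and 2 at the 4 times, against 23.8%, 15.3%, 34.1% and 20.5% of all tested genes. Without WT 1 the edgeR test called 0, 0, 2 and 0 members. At 0, 3 and 24 h DESeq2 called 1, 0 and 1 members and limma-voom 1, 0 and 0. The median log2 difference of the members, Aim2-/- over WT, was 0.081 at 0 h, 0.037 at 3 h, 0.023 at 6 h and -0.13 after 24 h. Aim2 itself, with WT 1 included, differed by -1.58, -1.43, -1.34 and -2.04 at the 4 times. It was not called by edgeR at any of them (adjusted p = 0.0794, 0.224, 0.0885 and 0.0784), so the lack of a call does not show equal levels.

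Mdh1 in every Aim2-/- library was above that in every WT library at 0, 3 and 6 h, at the levels given above, and the groups overlapped after 24 h. The log2 difference was 0.26 ± 0.078 at 0 h (adjusted p = 0.0521), 0.24 ± 0.078 after 3 h (adjusted p = 0.173), 0.34 ± 0.078 after 6 h (adjusted p = 0.0118) and -0.056 ± 0.078 after 24 h (adjusted p = 0.721), so only that at 6 h passed. Without the libraries labelled WT 1 it was 0.22, 0.28 and 0.32 at 0, 3 and 6 h, with adjusted p = 0.151, 0.0968 and 0.0340. The summed myeloid markers at 0 h were 68.9, 83.8 and 62.5 CPM in WT 1, 3 and 4 and 644, 232 and 352 CPM in Aim2-/- 1, 2 and 4. With the marker scores as terms the difference of Mdh1 at 0 h was 0.15 (adjusted p = 0.476). Those scores differ between the genotypes and take up part of the same contrast, so that fit cannot separate genotype from marker content.

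At 6 h Idh2 was higher in Aim2-/- than in WT cells by 0.36 ± 0.11 (adjusted p = 0.0358) and Ogdh lower by 0.30 ± 0.10 (adjusted p = 0.0483). The lowest Aim2-/- value of Idh2, 28.98 CPM, was close to the highest WT value, 28.91 CPM, while for Ogdh the ranges of 236 to 263 CPM and 289.9 to 326 CPM were well apart. Without WT 1 Idh2 was 0.46 (adjusted p = 0.0288) and Ogdh -0.25 (adjusted p = 0.159). None of the 3 calls at 6 h was kept without Aim2-/- 1, without WT 3 or without WT 4. The summed myeloid markers at 6 h were 66.6, 54.03 and 32.7 CPM in WT 1, 3 and 4 and 421, 141 and 183 CPM in Aim2-/- 1, 2 and 4. With the marker scores as terms the differences were 0.32 for Idh2, -0.056 for Ogdh and 0.24 for Mdh1, none of them called, where those scores differ between the genotypes and take up part of the same contrast.

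**Figure D5:**
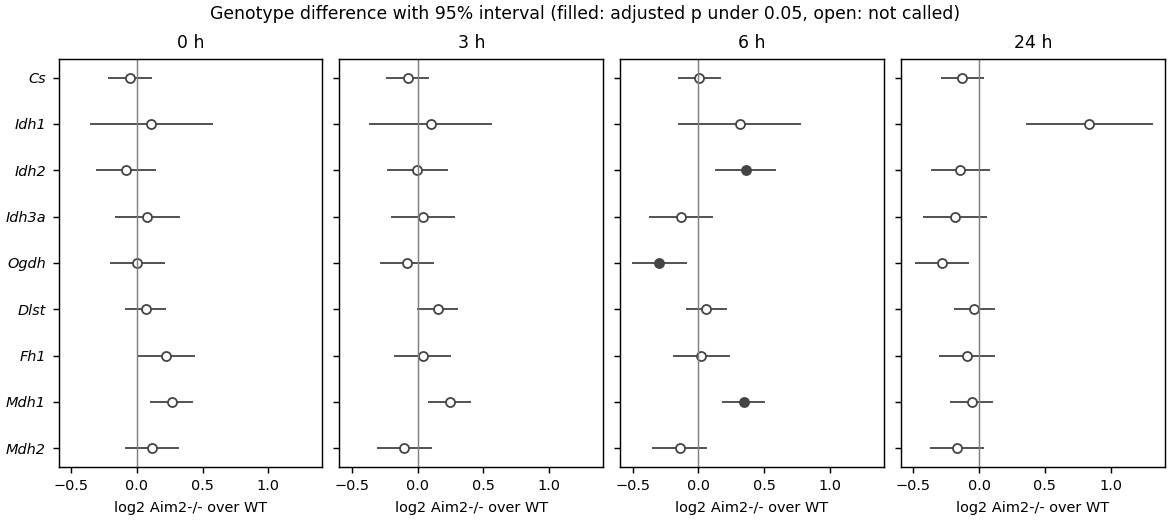
Log2 difference between Aim2-/- and WT cells (x axis, with its 95% interval) for each member at 0, 3, 6 and 24 h; filled points were called at adjusted p under 0.05. The 3 filled points are Idh2, Ogdh and Mdh1 at 6 h, and Idh1 at 24 h is the farthest open point, at 0.84.

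Idh1 at 24 h had the largest genotype difference of any member at any time and did not pass. All 3 Aim2-/- values were above all 3 WT values, and the log2 difference was 0.84 ± 0.23 (95% interval 0.36 to 1.32, adjusted p = 0.0784), or 0.95 without WT 1 (adjusted p = 0.110) and 0.55 without Aim2-/- 1 (adjusted p = 0.513). DESeq2 called it (adjusted p = 0.0225) and limma-voom did not (adjusted p = 0.160). The myeloid marker sum at 24 h was 33.3, 17.4 and 24.7 CPM in WT 1, 3 and 4 and 368, 63.8 and 121 CPM in Aim2-/- 1, 2 and 4, so the Aim2-/- mouse with the highest Idh1 was also the one with the highest marker sum. All 12 myeloid markers had a count in each Aim2-/- library at 24 h, and 1 or 2 of them were at 0 in each WT library. With the marker scores as terms the Idh1 difference was 0.11 (adjusted p = 1.00). Those scores differ between the genotypes and take up part of the same contrast. Marker content and genotype therefore cannot be told apart here, and the cause of the Idh1 difference was not tested.

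Fh1, the member nearest the Aim2 locus, differed by 0.22 ± 0.10 at 0 h (adjusted p = 0.197), and by 0.037 ± 0.10, 0.023 ± 0.10 and -0.10 ± 0.10 at 3, 6 and 24 h. At 0 h its ranges overlapped only through WT 1, at 50.9 CPM against 42.5 and 41.6 CPM in WT 3 and 4 and 47.7 to 59.6 CPM in Aim2-/- cells. Without WT 1 the differences of Fh1 were 0.32 (adjusted p = 0.0958), 0.12, 0.025 and -0.14, none of them called. Cs, Idh3a, Dlst and Mdh2 were called at no time. The 95% intervals of their differences at 24 h were -0.29 to 0.036, -0.43 to 0.058, -0.19 to 0.12 and -0.38 to 0.039 on the log2 scale, the sizes that 3 mice per genotype leave possible, and without WT 1 the differences were -0.16, -0.23, -0.035 and -0.22. Ogdh at 24 h stood at -0.28 ± 0.10 (adjusted p = 0.135), or -0.31 without WT 1 (adjusted p = 0.198).

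Around the cycle, 3 of the 6 carriers were called higher in Aim2-/- cells at 6 h, Slc25a10 (0.73 ± 0.13, adjusted p = 0.00516), the oxoglutarate-malate carrier Slc25a11 (0.45 ± 0.070, adjusted p = 0.00349) and Slc25a1 (0.32 ± 0.10, adjusted p = 0.0330). Of all tested genes, 15.8% were called between the genotypes at 6 h in either direction, and 5.23% at 0 h. The cytosolic aspartate aminotransferase Got1, which works beside Mdh1 in the malate-aspartate shuttle, was higher in Aim2-/- cells at 0 h (0.74 ± 0.13, adjusted p = 0.00567), and the glutaminase Gls2 at 0 h (0.75 ± 0.19) and 6 h (1.18 ± 0.20). Without WT 1 these were 0.86 for Slc25a10, 0.45 for Slc25a11, 0.64 for Got1 and 0.82 and 1.15 for Gls2, all called, and 0.31 for Slc25a1, which was not. With the marker scores as terms Got1 at 0 h, at 0.88 (adjusted p = 0.0423), was the one still called. At 6 h the phosphatase Pdp2 (-0.25 ± 0.084) and the regulators Pprc1 (-0.68 ± 0.16), Nrf1 (-0.25 ± 0.082) and Gabpa (-0.28 ± 0.091) were lower in Aim2-/- cells, of which Pprc1 alone (-0.71) was called without WT 1, and none with the marker scores, which differ between the genotypes. None of the 10 other genes of the cycle was called at any time.

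Whether the response itself differed was asked by the interaction, the Aim2-/- change from 0 h minus the WT change. It was called by edgeR for 0 members at 3 h, at 6 h and at 24 h, as for 0%, 0.0261% and 0% of all genes, and for 0 members by DESeq2 and limma-voom. The members with an unadjusted p under 0.05 numbered 0, 2 and 3 at the successive times (4.26%, 13.2% and 11.9% of all genes). Those at 6 h were Idh2 (0.44 ± 0.16, adjusted p = 0.220) and Ogdh (-0.30 ± 0.14, adjusted p = 0.365), and those at 24 h were Mdh1 (-0.32 ± 0.11, adjusted p = 0.248), Fh1 (-0.32 ± 0.15, adjusted p = 0.396) and Idh1 (0.73 ± 0.32, adjusted p = 0.372). A fall of Idh1 and a rise of Mdh1 at 24 h that were called in WT cells and not in Aim2-/- cells are therefore not shown to differ between them. At 24 h the median interaction of the members was -0.26 against 0.012 over all tested genes, and this shift was not tested. The median was -0.17 for the rest of the cycle, -0.18 for the carriers, -0.17 for pyruvate entry and -0.17 for anaplerosis and glutamine. It was -0.031 for the regulators of mitochondrial genes and 0.088 for the use of citrate and 2-hydroxyglutarate. Without WT 1 the interaction was 0.54 for Idh2 and -0.23 for Ogdh at 6 h. At 24 h it was then -0.31 for Mdh1, -0.46 for Fh1 and 0.78 for Idh1, and none of these was called.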

How the data were processed

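Per the labels and the study's methods, the authors enriched splenic CD4+ T cells, made stranded polyadenylated RNA libraries, aligned single-end reads with STAR to GRCm38, and deposited raw read counts per gene. Genes were named from GENCODE M21 annotation of that build (54409 of 54446 identifiers matched). Counts were tested with edgeR 4.0.16 (R 4.3.3, TMM factors, filterByExpr with a minimum count of 10, quasi-likelihood F test) on all 24 libraries with 1 mean per genotype and time. P-values were adjusted over 15325 genes (Benjamini-Hochberg, threshold 0.05), and the SE was the log2 change divided by the root of F. Replicates are mice. Libraries of the same mouse correlated in their deviations from group means (0.139 to 0.567 over 36 pairs, against -0.432 to 0.0742 between mice), so the mouse was also fitted as a block. Alternatives were RLE factors, library totals, DESeq2 1.42.0, limma-voom 3.58.1, other filters, fewer libraries, marker scores and each mouse left out. The test was also run on simulated independent libraries with the same dispersion for every gene. That run leaves out the correlation within mice seen here. The promoter windows are from RefSeq. Named genes were the 9 members, up to 4 of each list with the largest change at 24 h in WT cells, and the 3 nearest profiles per member; list genes called between genotypes were named after their values were seen. The members and lists were chosen with earlier results of these data known. Some genes of these lists are not reported here, and list counts leave them out.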

Additional observations from a re-analysis of the deposited data

Results flagged for a closer look

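The log2 change of Mdh1 from 0 to 24 h was above 0 in each of the 3 WT mice and below 0 in each of the 3 Aim2-/- mice. The change in Aim2-/- cells was -0.059 ± 0.078 (95% interval -0.22 to 0.10, adjusted p = 0.513 by edgeR) and did not pass. The difference of the changes was -0.32 on the log2 scale (SE 0.11, unadjusted p = 0.00872 and adjusted p = 0.248 by edgeR), and it did not pass. The Aim2-/- libraries started higher at 0 h (304, 293 and 325 CPM against 239, 267 and 262 CPM) and ended within the WT range or below it at 24 h (289.7, 281 and 315 against 289.8, 318 and 312 CPM).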

How the results depend on the processing

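Of 153 changes of a member, 69 were called and 46 of these were called under every alternative. The called changes from 0 to 24 h kept their call apart from Mdh1 in WT cells, and Idh1 in Aim2-/- cells gained one without Aim2-/- 1. The mouse as a block changed no call of a member in any comparison with 0 h, between times or in the interactions. Of the 76 changes called nowhere, 41 took values of both signs over the alternatives. Ogdh at 24 h, Aim2-/- over WT, went from -0.28 to 0.018 with marker scores as terms.

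Counts of called members moved as follows. With no filter on low counts they were 3 for Aim2-/- 3 h against 0 h, 3 for each step from 3 to 6 h, 1 between the genotypes at 6 h and 1 at 24 h. With only the libraries compared they were 2 for Aim2-/- 3 h against 0 h, 0 for the Aim2-/- step from 3 to 6 h and 1 between the genotypes at 6 h, and with marker scores 0 at 6 h. DESeq2 gave 1 member at 0 h and 1 at 24 h between the genotypes, and limma-voom 1 at 0 h. Leaving out a mouse gave 2 to 4 members for WT 3 h, 2 to 4 for Aim2-/- 3 h, 1 to 3 for WT 6 h against 3 h, 2 to 5 for Aim2-/- 6 h against 3 h, and between the genotypes 0 to 1 at 0 h, 0 to 3 at 6 h and 0 to 2 at 24 h. The genotype difference in the Idh1 share at 3 h, 0.467 percentage points, ran from -0.710 to 1.59 when a mouse was left out. The cause of these changes was not tested.

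Mouse numbers 1 and 4 occur in both genotypes, and libraries of the same number and time correlated at -0.165 to 0.268 in their deviations from the group means, within the -0.301 to 0.29 of different numbers, so they were not taken as pairs. With the mouse number as a replicate block the genotype counts were 1, 1, 3 and 2 from the earliest to the latest time. Library totals in place of TMM factors took the median log2 change of all genes to as much as 0.20, from 0.078 (Aim2-/- 6 h against 0 h), and under them Mdh1 at 3 h lost its call in both genotypes. Among the members Idh1, at 86 to 348 counts per library, had the widest intervals between the genotypes.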
